A study of Mus musculus with 16 samples.

Results

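Transcript levels of 7 genes of the interferon regulatory factor (IRF) group were followed in 16 bulk RNA-seq samples of mouse CD8+ T cells. The genes are Irf1, Irf2, Irf3, Irf4, Irf5, Irf8 and Irf2bp2. The first 6 encode IRF transcription factors, and Irf2bp2 encodes a corepressor named for its binding to IRF2. They were taken by symbol from a table of 54532 genes after earlier results of these data were known. All 7 had counts in every sample, with the lowest count, 253, for Irf5, and all 7 passed the filter on low counts in every comparison.

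The cells were isolated as naive CD8+ T cells from spleens of C57BL/6J mice and were activated repeatedly in culture for 4 days, which yields antigen-experienced cells that retain TCF1, a transcription factor of stem-like T cells. They were kept with prostaglandin E2 (PGE2, 100 ng/mL) for 1 h or without it. All cells then received low-dose IL-2 (85 U/ml) for 4 h, either by itself (unstimulated cells) or together with aCD3/CD28 beads at 1 bead per cell, which engage the T cell receptor and its costimulator CD28 (stimulated cells). The 4 groups, unstimulated untreated, unstimulated with PGE2, stimulated untreated and stimulated with PGE2, had 4 replicates each. IL-2 was thus common to every group, and no genetic change is given for any. As a model the cells are isolated CD8+ T cells of 1 strain in culture, without a tumour. What cultures of 1 replicate number share is not stated, so the p-values measure the spread between these samples.

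IRFs share a DNA-binding domain that reads GAAA repeats in interferon-stimulated response elements. IRF1 is induced by interferon gamma and drives genes of antigen processing and of the guanylate-binding proteins, IRF2 competes for the same sites, and IRF3 and IRF5 are switched on by kinases downstream of nucleic acid sensors and Toll-like receptors. IRF4 and IRF8 bind DNA weakly alone and pair with BATF-JUN or ETS partners, and in CD8+ T cells IRF4 is induced by the T cell receptor and is needed for expansion and effector differentiation.

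The total count per sample was 22678254 to 42950763. A list of 6 CD8+ T cell markers summed to 2570 to 4322 CPM (counts scaled by library size with TMM factors), with every gene of the list above 1 CPM in each group. Marker lists of other cells summed to lower values. The B cell list of 8 genes summed to 12.3 to 22.4 CPM in unstimulated untreated and 4.92 to 12.96 CPM in stimulated untreated cells, and the myeloid list of 8 genes did not exceed 13.1 CPM in any group. Of the 8 dendritic cell markers, Siglech and Cd209a were at 0 in all 16 samples.

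Per gene length, Irf1 was the most abundant of the 7 in unstimulated cells and Irf4 and Irf8 were the most abundant in stimulated cells. In FPKM, which scales fragments by gene length and library size, Irf1 stood at 54.7 ± 1.26 (SD, n = 4) in unstimulated untreated cells, above every replicate of the other 6 genes. Irf3 at 22.1 ± 1.91 FPKM, Irf4 at 20.5 ± 9.60 FPKM, Irf2bp2 at 18.6 ± 1.18 FPKM, Irf2 at 14.95 ± 1.68 FPKM and Irf8 at 14.8 ± 6.17 FPKM overlapped with their neighbours in this order. Irf5 was the lowest at 4.82 ± 1.075 FPKM, below every replicate of Irf8.

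In stimulated untreated cells the order was Irf4 at 228 ± 19.1 FPKM, Irf8 at 192 ± 23.9 FPKM, Irf1 at 50.6 ± 7.09 FPKM, Irf2bp2 at 37.1 ± 6.86 FPKM, Irf3 at 25.9 ± 1.77 FPKM, Irf5 at 11.2 ± 2.23 FPKM and Irf2 at 7.72 ± 0.53 FPKM. In this order, Irf4 overlapped with Irf8 and Irf1 overlapped with Irf2bp2, and every other neighbour was separated in all replicates. The order of means was the same in stimulated cells with PGE2, where Irf4 had 239 ± 55.4 FPKM, Irf8 152 ± 37.0 FPKM and Irf1 63.9 ± 8.15 FPKM.

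**Figure D1:**
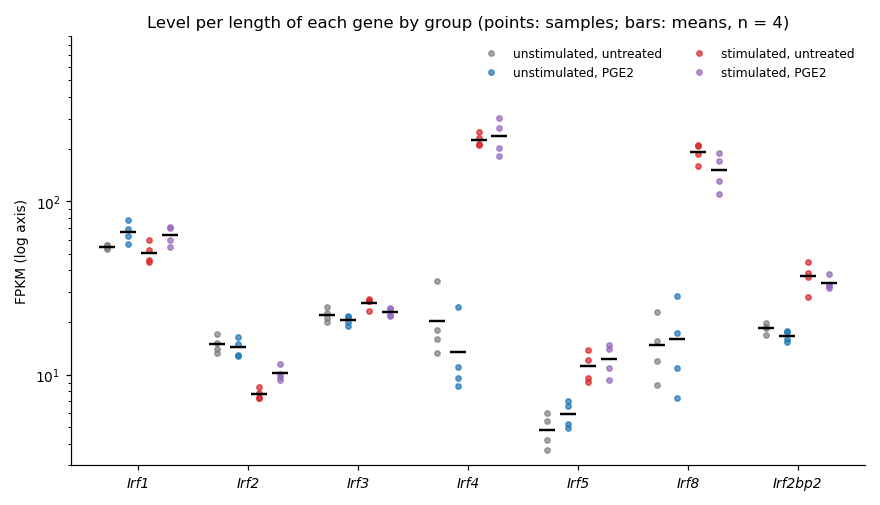
FPKM of each gene (log axis) in the 4 groups; points are samples and bars are means (n = 4). Irf1 is the highest of the 7 in unstimulated cells, whereas Irf4 and Irf8 do not exceed 34.6 FPKM in unstimulated samples and are at least 111 FPKM in stimulated samples.

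The bases before the start sites of 4 genes are printed, because these are the genes that passed a PGE2 comparison (Irf1 and Irf2) or changed most with stimulation (Irf4 and Irf8). They come from the RefSeq promoter table of build GRCm38.p6, in which all 7 genes have an entry, and read 5' to 3' on the plus strand up to the gene start of the deposited table: Irf1 chr11:53769764-53770013, Irf2 chr8:46739495-46739731, Irf4 chr13:30748983-30749225 and Irf8 chr8:120736108-120736357. Capitals mark matches to GAS, the gamma-activated site (TTCNNNGAA), and to an IRF core (GAAANNGAA), searched on both strands together with CRE (TGACGTCA), AP-1 (TGANTCA) and an NF-kB core (GGGNNTTCC).
Irf1: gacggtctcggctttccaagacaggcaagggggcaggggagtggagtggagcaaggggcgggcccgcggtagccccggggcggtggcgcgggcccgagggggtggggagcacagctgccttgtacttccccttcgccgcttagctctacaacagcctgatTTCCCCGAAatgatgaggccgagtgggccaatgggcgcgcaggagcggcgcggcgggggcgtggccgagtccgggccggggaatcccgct
Irf2: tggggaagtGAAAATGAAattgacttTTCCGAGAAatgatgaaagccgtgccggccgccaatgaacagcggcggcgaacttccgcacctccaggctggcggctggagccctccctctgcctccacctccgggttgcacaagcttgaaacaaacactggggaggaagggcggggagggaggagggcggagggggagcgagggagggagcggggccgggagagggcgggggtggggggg
Irf4: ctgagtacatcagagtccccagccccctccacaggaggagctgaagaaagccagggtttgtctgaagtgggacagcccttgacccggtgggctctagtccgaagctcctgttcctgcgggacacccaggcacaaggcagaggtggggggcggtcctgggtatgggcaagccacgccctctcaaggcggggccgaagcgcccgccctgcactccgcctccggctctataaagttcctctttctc
Irf8: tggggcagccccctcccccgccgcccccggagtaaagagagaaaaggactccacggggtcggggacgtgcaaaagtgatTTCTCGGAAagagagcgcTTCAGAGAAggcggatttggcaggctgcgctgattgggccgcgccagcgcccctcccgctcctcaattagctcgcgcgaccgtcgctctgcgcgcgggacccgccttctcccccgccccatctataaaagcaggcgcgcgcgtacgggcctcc

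The Irf1 window held 1 GAS match, at -90 to -82 from the RefSeq start site, and the Irf8 window held 2 GAS matches, at -171 to -163 and at -153 to -145. The Irf2 window held an IRF core match at -241 to -233 and a GAS match at -224 to -216. It also held an NF-kB core match at -16 to -8, which runs past the gene start of the deposited table and is therefore not shown. None of the 5 motifs was found in the Irf4 window, nor in those of Irf3 and Irf5, and Irf2bp2 had 1 IRF core match at -141 to -133. No match overlapped another. Only these exact patterns were searched, so an NF-kB or other site that is spelled otherwise would not be counted. Of 32851 windows of 250 bases in the table, 7.02% held a GAS match, 7.13% an IRF core, 6.75% AP-1, 4.98% the NF-kB core and 1.55% CRE. Irf1 and Irf8 have another start site in the table, without a match to any of the 5 motifs in its window.

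Stimulation moved 6 of the 7 genes both with and without PGE2: Irf4, Irf8, Irf5, Irf2bp2 and Irf3 rose and Irf2 fell (edgeR quasi-likelihood test, adjusted p below 0.05). Of all genes tested, 31.7% rose and 34.8% fell without PGE2, and 32.5% rose and 31.7% fell with PGE2. A fold change of at least 2 was reached by Irf4, Irf8 and Irf5 without PGE2, where 23.2% of genes did so, and by these and Irf2bp2 with PGE2, where 22.1% did. Groups did not overlap for 5 of 7 genes without PGE2, against 61.6% of all genes, and for 6 of 7 with PGE2, against 60.2%.

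PGE2 had small effects on the same genes, none of which reached a fold change of 2. That size was reached by 3.38% of all genes in unstimulated and by 1.75% in stimulated cells. In unstimulated cells 1 of 7, Irf1, rose, against 28.4% of all genes that changed, of which 12.9% of genes tested rose and 15.5% fell. In stimulated cells 1 of 7, Irf2, rose, against 9.84% that changed, 6.04% up and 3.8% down. Groups were free of overlap for the same 1 gene in each comparison, against 28.8% and 17.9% of all genes. Replicate pairs are samples of the same replicate number. In unstimulated cells, 5 of 7 genes had the same sign in all 4 replicate pairs, against 56.3% of all genes. In stimulated cells 4 of 7 did, against 54.3%. Because samples with the same replicate number deviated together, each PGE2 comparison was also fitted with a block for the replicate number. In this blocked fit 5 of 7 genes passed in unstimulated cells, 2 up and 3 down, against 47.8% of all genes (23.6% up and 24.2% down). In stimulated cells 4 of 7 passed, 2 up and 2 down, against 39.8% of all genes (19.1% up and 20.7% down).

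**Figure D2:**
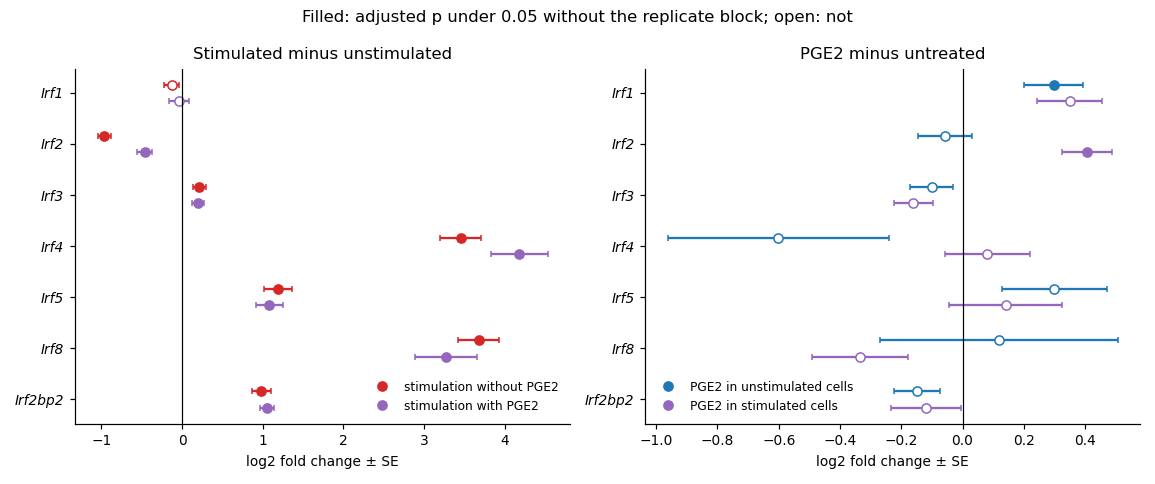
Log2 fold change ± SE of each gene for stimulation (left) and for PGE2 (right), from fits without the replicate block; filled points have an adjusted p below 0.05. Irf4 and Irf8 lie between 3.27 and 4.18 on the left, and all values on the right lie between -0.60 and 0.41.

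IRF1 is the interferon gamma-induced activator of the family, and its gene was higher with PGE2 in all 8 replicate pairs. The same sign in all 4 pairs was common among all genes, at 56.3% in unstimulated and 54.3% in stimulated cells. Irf1 (chr11:53770014-53778374) had 222, 224, 234 and 234 CPM in replicates 1 to 4 of unstimulated untreated cells and 235, 260, 285 and 326 CPM with PGE2. Every replicate with PGE2 lay above every one without. Irf1 rose by 0.30 ± 0.10 on the log2 scale (SE, adjusted p = 0.0374), or by 0.29 ± 0.05 in the blocked fit (adjusted p = 0.000230). The call without the block was lost when any 1 of the 4 untreated replicates or replicate 3 or 4 with PGE2 was left out (adjusted p 0.0594 to 0.0962).

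In stimulated cells Irf1 had 244, 216, 194 and 190 CPM without PGE2 and 291, 296, 252 and 229 CPM with it. These groups overlapped, since replicate 1 without PGE2 exceeded replicate 4 with PGE2. The difference of 0.35 ± 0.10 did not pass without the block (adjusted p = 0.0635) and passed with it (0.35 ± 0.05, adjusted p = 0.000229). It also passed without untreated replicate 1 (adjusted p = 0.0459) or PGE2 replicate 4 (adjusted p = 0.0384), with DESeq2 (0.0378), with upper-quartile factors (0.0344) and in 1 fit of all 16 samples (0.0368). These were 2 of 8 fits with a replicate left out and 3 of 9 alternative settings of scaling, filter, model or tool. The adjusted p reached 0.152 among the former and 0.231 among the latter. Stimulation itself left Irf1 at -0.13 ± 0.09 without PGE2 (adjusted p = 0.234) and at -0.03 ± 0.12 with PGE2 (adjusted p = 0.819). Without stimulated untreated replicate 1, the former was -0.21 (adjusted p = 0.0241).

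IRF2 occupies the elements that IRF1 reads and is often a repressor there. Irf2 (chr8:46739732-46847458) was the only 1 of the 7 genes that fell with stimulation in the tests of either setting. Whether the fall differed between cells with and without PGE2 is given with the interaction test. Unstimulated untreated cells had 133, 119, 110 and 104 CPM and stimulated untreated cells 64.1, 56.3, 61.5 and 58.2 CPM. The groups did not overlap, and Irf2 was 1.95-fold lower after stimulation (log2 fold change -0.97 ± 0.08, adjusted p = 6.03e-07).

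With PGE2, Irf2 had 127, 116, 98.0 and 100 CPM in unstimulated and 71.0, 75.6, 79.3 and 90.7 CPM in stimulated cells. It was 1.38-fold lower after stimulation (-0.46 ± 0.09, adjusted p = 0.00123), again without overlap. Among stimulated cells every replicate with PGE2 exceeded every untreated one, by 0.41 ± 0.08 on the log2 scale (adjusted p = 0.0138) and by 0.40 ± 0.06 in the blocked fit (adjusted p = 0.000820). Without stimulated untreated replicate 2 the adjusted p was 0.0569 without the block. Among unstimulated cells the PGE2 difference was -0.06 ± 0.09 (adjusted p = 0.678, and 0.200 in the blocked fit), with Irf2 lower in 4 of 4 replicate pairs.

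The interaction of PGE2 with stimulation asks whether the PGE2 effect differed between stimulated and unstimulated cells. No member passed this test, where 0.749% of 15096 genes did (2.7% in the blocked fit). At an unadjusted p below 0.05 there was 1 member, Irf2, with edgeR, and 1 with DESeq2, which also gave 0 past the adjusted threshold. The interaction of Irf2 was 0.48 ± 0.14 on the log2 scale (adjusted p = 0.152, and 0.0666 in the blocked fit). The block takes the replicate numbers to pair all 4 groups, although they tied the unstimulated and stimulated PGE2 groups only weakly. For Irf4 the interaction was 0.70 ± 0.43 (adjusted p = 0.713) and for Irf8 -0.43 ± 0.46 (adjusted p = 0.899). The other 4 members lay between -0.14 and 0.07.

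**Figure D3:**
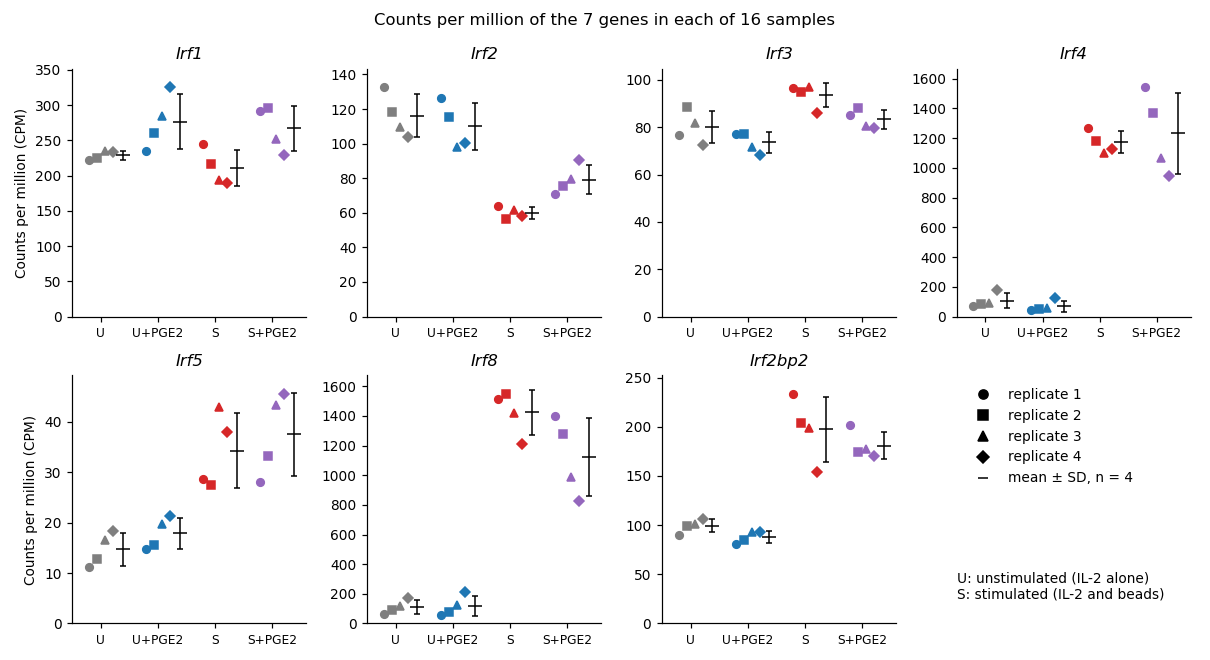
CPM of the 7 genes in each of the 16 samples, marked by replicate number, with mean ± SD (n = 4) beside each group. Irf4, Irf8, Irf5 and Irf2bp2 separate stimulated from unstimulated cells, Irf2 is lower in stimulated cells, and replicate 4 is the highest of the unstimulated samples for Irf4 and Irf8.

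IRF3 is the constitutively present factor that TBK1 activates by phosphorylation, and its transcript changed least of the 6 that passed with stimulation. Irf3 (chr7:44997648-45002848) had 76.9, 88.5, 82.0 and 72.7 CPM in unstimulated untreated and 96.5, 94.7, 97.0 and 86.2 CPM in stimulated untreated cells. The groups overlapped by replicate 4 of the stimulated cells, and Irf3 rose by 0.21 ± 0.08 (adjusted p = 0.0313). With PGE2 it had 76.96, 77.3, 71.8 and 68.4 CPM in unstimulated and 85.1, 88.1, 80.6 and 79.7 CPM in stimulated cells, which did not overlap (0.20 ± 0.07, adjusted p = 0.0302).

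Both rises of Irf3 were close to the threshold. With PGE2 the call held in 3 of 9 alternative settings of scaling, filter, model or tool (adjusted p 0.0322 to 0.347 over the 9), and without PGE2 it held in 7 of 9, being lost without a filter on low counts (adjusted p = 0.0631) and with upper-quartile factors. Upper-quartile scaling shifted the median of all genes by -0.13 with PGE2 and by -0.10 without, and Irf3 then had 0.07 (adjusted p = 0.347) and 0.12 (adjusted p = 0.175). Relative to the median of all genes its change was 0.19 with PGE2 and 0.24 without under either scaling. Without PGE2 the call was lost when unstimulated replicate 1 or 4 or stimulated replicate 1, 2 or 3 was left out (adjusted p 0.0528 to 0.0842), and with PGE2 when unstimulated replicate 1, 3 or 4 or stimulated replicate 1, 2 or 3 was (adjusted p 0.0617 to 0.186). PGE2 gave Irf3 -0.10 ± 0.07 in unstimulated (adjusted p = 0.320) and -0.16 ± 0.06 in stimulated cells (adjusted p = 0.145), the latter in 4 of 4 replicate pairs. The blocked fit passed in both (adjusted p = 0.0448 and 0.0127). It did not pass without replicate 2, 3 or 4 of both unstimulated groups (adjusted p 0.0597 to 0.362) or without replicate 3 of both stimulated groups (adjusted p = 0.0950).

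IRF5 acts downstream of MyD88, mostly in myeloid and B cells, and its gene was the lowest of the group at rest. Irf5 (chr6:29526625-29541871) had 11.2, 12.8, 16.6 and 18.4 CPM in unstimulated untreated and 28.6, 27.5, 42.9 and 38.04 CPM in stimulated untreated cells. Every stimulated replicate was above every unstimulated one, and Irf5 was 2.28-fold higher (log2 fold change 1.19 ± 0.17, adjusted p = 4.85e-05). With PGE2 the values were 14.8, 15.7, 19.7 and 21.3 CPM and 28.2, 33.3, 43.3 and 45.6 CPM, a 2.11-fold rise without overlap (1.079 ± 0.17, adjusted p = 0.000206).

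PGE2 in unstimulated cells gave Irf5 higher values in 4 of 4 replicate pairs, although the groups overlapped. The difference of 0.30 ± 0.17 did not pass without the block (adjusted p = 0.227) and passed with it (0.31 ± 0.06, adjusted p = 0.000756). In stimulated cells it was 0.14 ± 0.18 (adjusted p = 0.642, and 0.109 in the blocked fit), with 0.038 to 0.27 when 1 replicate was left out, and the blocked fit passed without replicate 1 of both groups (adjusted p = 0.0415). Irf5 shares 411 exon bases, 14.1% of its exon length, with Tnpo3 on the opposite strand. Tnpo3 stood at 90.1 ± 4.74 CPM in unstimulated untreated and 123 ± 5.77 CPM in stimulated untreated cells, and as the use of strand in counting is not stated, reads in the shared bases could not be told apart.

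IRF4, the factor induced by T cell receptor signals, had the largest rise of the 7 genes with PGE2 present. Irf4 (chr13:30749226-30766976) had 68.7, 82.0, 93.4 and 179 CPM in unstimulated untreated and 1271, 1183, 1102 and 1129 CPM in stimulated untreated cells. With PGE2 it had 43.7, 48.4, 56.2 and 126 CPM in unstimulated and 1544, 1369, 1069 and 948 CPM in stimulated cells. Stimulated and unstimulated samples were far apart in both settings, by 10.96-fold without PGE2 (log2 fold change 3.46 ± 0.25, adjusted p = 1.55e-07) and by 18.1-fold with PGE2 (4.18 ± 0.35, adjusted p = 3.58e-06). In bulk RNA, a change in the number of cells that express a gene and a change in RNA per cell cannot be told apart.

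Among unstimulated cells, Irf4 was lower with PGE2 in 4 of 4 replicate pairs, by 0.65, 0.76, 0.73 and 0.51 on the log2 scale. The groups overlapped, because replicate 4 was the highest in both. Without the block the difference was -0.60 ± 0.36 (adjusted p = 0.250), and with the block it was -0.64 ± 0.04 (adjusted p = 4.91e-09). Replicate 4 of either group decided the unblocked value, which was -1.08 (adjusted p = 0.0155) without that of the PGE2 group and -0.22 (adjusted p = 0.665) without that of the untreated group, and the blocked fit without any 1 replicate number gave -0.70 to -0.59. Among stimulated cells the PGE2 difference was 0.08 ± 0.14 (adjusted p = 0.734), with 2 pairs higher and 2 lower, and the PGE2 group had the wider spread (1232 ± 273 against 1171 ± 74.3 CPM).

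IRF8, which partners with PU.1 in myeloid and B cells and is also made by activated CD8+ T cells, rose most of the 7 genes in cells without PGE2. Irf8 (chr8:120736358-120756694) had 64.1, 88.7, 116 and 172 CPM in unstimulated untreated and 1515, 1549, 1423 and 1211 CPM in stimulated untreated cells. With PGE2 it had 53.7, 79.96, 126 and 210 CPM in unstimulated and 1402, 1277, 990 and 826 CPM in stimulated cells. Stimulation gave a 12.8-fold rise without PGE2 (log2 fold change 3.68 ± 0.25, adjusted p = 1.00e-07) and a 9.64-fold rise with PGE2 (3.27 ± 0.38, adjusted p = 2.92e-05), with no overlap in either. Every 1 of the 8 replicates left out in turn kept these calls.

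Under PGE2, stimulated cells had less Irf8 in 4 of 4 replicate pairs, by 0.11, 0.28, 0.52 and 0.55 on the log2 scale. The groups overlapped, and the difference of -0.33 ± 0.16 did not pass without the block (adjusted p = 0.198), whereas the blocked fit gave -0.36 ± 0.07 (adjusted p = 0.00292). That call held without any 1 replicate number (adjusted p 0.000244 to 0.0310). In unstimulated cells 2 pairs were higher and 2 lower, with 0.12 ± 0.39 (adjusted p = 0.860, and 0.634 in the blocked fit).

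In unstimulated cells, Irf4 and Irf8 varied most of the 7 genes between replicates. Their coefficient of variation was 47.1% and 41.9% in unstimulated untreated and 56.2% and 58.3% in unstimulated PGE2 cells, against 6.35% and 10.7% in stimulated untreated and 22.1% and 23.4% in stimulated PGE2 cells. Replicate 4 was the highest and replicate 1 the lowest for both genes in both unstimulated groups. The summed CD8+ marker list was the lowest in replicate 4 (3385 CPM untreated and 2906 CPM with PGE2) and the highest in replicate 1 (4322 and 3811 CPM) of the same groups. That list holds Tcf7, the gene of TCF1, which fell with stimulation. Tcf7 had an SD of 238 CPM in the untreated and 271 CPM in the PGE2 group of unstimulated cells. Its part in the range of the sum was not tested. The dendritic cell marker list summed to 13.9, 16.01, 26.7 and 25.9 CPM in replicates 1 to 4 of untreated and to 18.6, 23.7, 36.1 and 35.1 CPM of PGE2 cells, and was thus higher in replicates 3 and 4 in both. H2-Ab1 made up most of the dendritic cell list, with means of 16.5 CPM untreated and 23.6 CPM with PGE2. The myeloid list summed to 3.22, 5.29, 4.90 and 5.15 CPM in replicates 1 to 4 of untreated cells. With PGE2 it summed to 4.25, 6.36, 6.855 and 8.34 CPM. The B cell list was highest in replicate 3 of both groups. It summed to 16.1, 15.1, 22.4 and 12.25 CPM untreated and to 10.1, 11.6, 18.2 and 10.7 CPM with PGE2. Without PGE2, the log2 rise of Irf8 between samples of the same number was 4.56 in replicate 1 and 2.82 in replicate 4.

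Dendritic cells, myeloid cells and B cells also express Irf8 and Irf5. The list of 8 dendritic cell markers summed to 13.9 to 26.7 CPM in unstimulated untreated, 18.6 to 36.1 CPM in unstimulated PGE2, 27.4 to 45.9 CPM in stimulated untreated and 31.5 to 53.7 CPM in stimulated PGE2 cells. Of these genes 3 had a mean of at least 1 CPM in every group, namely Zbtb46, Xcr1 and H2-Ab1, while Flt3 did not exceed 0.183 CPM in any sample and Clec9a was at 0 in 3 of the 4 groups. The list of 8 myeloid markers summed to 3.22 to 5.29 CPM in unstimulated untreated, 4.25 to 8.34 CPM in unstimulated PGE2, 7.95 to 11.3 CPM in stimulated untreated and 8.75 to 13.1 CPM in stimulated PGE2 cells. Of these genes Mpeg1 went from 0.658 to 5.81 CPM with stimulation without PGE2, while Lyz2 and Csf1r did not exceed 0.0594 CPM in any sample. The B cell list did not exceed 12.96 CPM in stimulated cells, and Cd79b, at 13.1 CPM in unstimulated untreated and 5.45 CPM in stimulated untreated cells, made up most of it. The part of these cells in the rises of Irf8 and Irf5 was not tested.

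**Figure D4:**
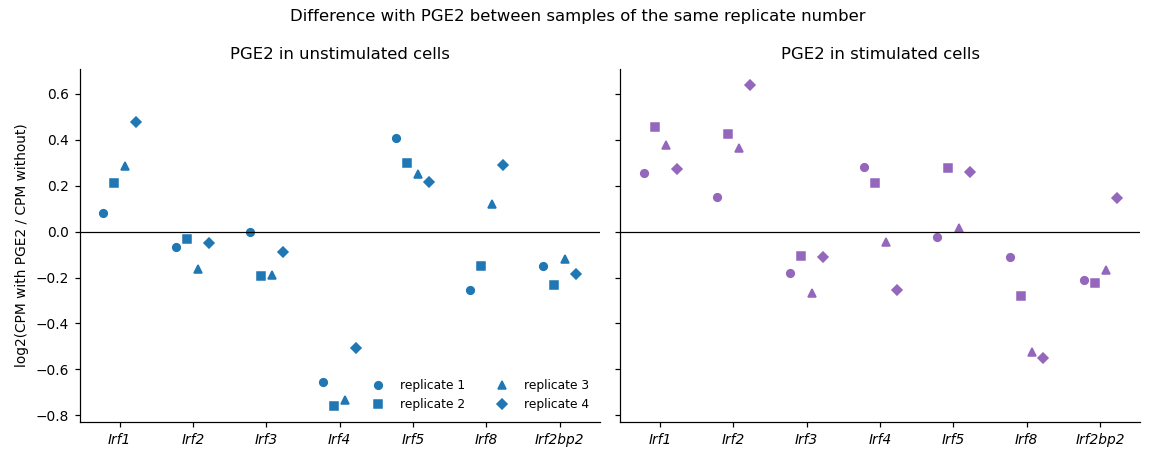
Log2 ratio of CPM with PGE2 to CPM without, between samples of the same replicate number, in unstimulated (left) and stimulated (right) cells. In unstimulated cells all 4 points lie above 0 for Irf1 and Irf5 and below 0 for Irf2, Irf4 and Irf2bp2. In stimulated cells all 4 lie above 0 for Irf1 and Irf2 and below 0 for Irf3 and Irf8. The same sign in 4 of 4 was seen for 56.3% and 54.3% of all genes. No member passed the interaction test.

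Irf2bp2, the corepressor gene, rose with stimulation in both settings, and its interaction was 0.04 ± 0.14 (adjusted p = 0.980). Irf2bp2 (chr8:126588296-126593986, minus strand) had 90.1, 99.4, 101 and 106 CPM in unstimulated untreated and 234, 204, 199 and 154 CPM in stimulated untreated cells, without overlap. It was 1.98-fold higher after stimulation (log2 fold change 0.98 ± 0.12, adjusted p = 9.93e-06). With PGE2 the values were 81.2, 84.6, 93.1 and 93.2 CPM and 202, 175, 178 and 170 CPM, a 2.08-fold rise (1.05 ± 0.09, adjusted p = 3.46e-06).

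Irf2bp2 was lower with PGE2 in 4 of 4 pairs of unstimulated cells. The difference was -0.15 ± 0.07 (adjusted p = 0.166), or -0.15 ± 0.04 with the block (adjusted p = 0.00255), and the blocked fit without replicate 2 of both groups gave an adjusted p of 0.0512. In stimulated cells it was -0.12 ± 0.11 (adjusted p = 0.517, and 0.171 in the blocked fit), with -0.02 without untreated replicate 1 and -0.22 without untreated replicate 4, and the blocked fit passed without replicate 4 of both groups (-0.19, adjusted p = 0.00450). The gene shares 1039 exon bases with Gm26759 on the opposite strand, which had no count in any sample.

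Of 5 relatives outside the group, 2 rose and none fell with PGE2 in unstimulated cells, against 12.9% of all genes up and 15.5% down. With stimulation 2 rose and 2 fell, against 31.7% up and 34.8% down without PGE2 and 32.5% up and 31.7% down with PGE2. Irf7, the interferon-induced amplifier of the type I response, had 26.1, 29.0, 24.2 and 26.9 CPM in unstimulated untreated and 47.5, 57.0, 45.6 and 45.2 CPM in unstimulated PGE2 cells. It rose 1.87-fold with PGE2 there (log2 fold change 0.90 ± 0.09, adjusted p = 3.14e-05), without overlap. In stimulated cells, which had 63.8 ± 15.9 CPM untreated and 74.4 ± 15.5 CPM with PGE2, the difference was 0.23 ± 0.18 (adjusted p = 0.437, and 0.00154 in the blocked fit). The interaction of Irf7 was -0.66 ± 0.22 (adjusted p = 0.254, and 0.00905 in the blocked fit).

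Irf9, the DNA-binding subunit of the complex that type I interferon activates, rose with PGE2 in unstimulated cells (92.8 ± 7.85 to 113 ± 6.50 CPM, log2 fold change 0.31 ± 0.07, adjusted p = 0.00584). Irf2bp1 and Irf2bpl, relatives of Irf2bp2, did not pass with PGE2 in either state, and with stimulation Irf2bp1 rose (0.42 ± 0.11, adjusted p = 0.00505) and Irf2bpl fell (-0.63 ± 0.09, adjusted p = 5.49e-05) without PGE2.

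Of 9 DNA-binding partners of IRFs, 6 rose and none fell with stimulation without PGE2, and 5 rose with PGE2. Of all genes, 31.7% rose and 34.8% fell without PGE2, and 32.5% rose and 31.7% fell with it. The median of the 8 that were tested was 0.99 without PGE2, against -0.03 for all genes. Junb, the most abundant, went from 395 ± 86.9 to 1040 ± 103 CPM (1.38 ± 0.14, adjusted p = 2.90e-06) and Jund from 103 ± 5.45 to 265 ± 36.2 CPM (1.36 ± 0.10, adjusted p = 2.16e-07). With PGE2 in stimulated cells, 3 of the 7 tested fell and none rose: Jund (-0.54 ± 0.11, adjusted p = 0.0149), Batf and Batf3. Batf, named here as 1 of these 3 after its values were seen, was at 54.9 ± 8.12 CPM without and 30.5 ± 2.72 CPM with PGE2 (-0.84 ± 0.11, adjusted p = 0.00176), and its interaction was -0.67 ± 0.15 (adjusted p = 0.0415). The share of all genes in stimulated cells was 6.04% up and 3.8% down. In unstimulated cells 1 partner rose and 1 fell with PGE2, against 12.9% of all genes up and 15.5% down. The blocked fit counted 4 up and 2 down in unstimulated cells, against 23.6% and 24.2% of all genes. In stimulated cells it counted 2 up and 3 down, against 19.1% and 20.7%.

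Of 13 genes that lead from the T cell receptor to NF-kB and NFAT, 8 rose and 4 fell with stimulation without PGE2, against 31.7% of all genes up and 34.8% down, with a median of 0.84. Nfkb1, which encodes the p105 and p50 subunit, rose from 426 ± 29.4 to 1243 ± 138 CPM (1.53 ± 0.10, adjusted p = 6.96e-08). Lck, the proximal kinase, fell by 0.19 ± 0.08 (adjusted p = 0.0441). With PGE2, 1 rose and 3 fell in unstimulated cells, against 12.9% of all genes up and 15.5% down, and 2 fell in stimulated cells, against 6.04% up and 3.8% down. The blocked fit counted 6 rises and 6 falls in unstimulated cells, against 23.6% of all genes up and 24.2% down. In stimulated cells it counted 6 falls and no rise, against 19.1% up and 20.7% down.

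The interferon gamma pathway list, with 8 genes from the cytokine to its feedback inhibitors, moved in both directions. Ifng, the cytokine, rose with stimulation from 10.4 ± 10.7 to 994 ± 301 CPM (6.54 ± 0.58, adjusted p = 7.08e-07). With PGE2 it was at 2.46 ± 2.11 CPM in unstimulated (-2.05 ± 0.68, adjusted p = 0.0431) and at 449 ± 321 CPM in stimulated cells (-1.14 ± 0.51, adjusted p = 0.184, and 0.00112 in the blocked fit). Ifngr1, a receptor chain, was higher with PGE2 in both: 709.5 ± 44.4 against 1121 ± 126 CPM in unstimulated cells (0.68 ± 0.08, adjusted p = 9.64e-05) and 124 ± 29.9 against 467 ± 78.8 CPM in stimulated cells (1.92 ± 0.18, adjusted p = 0.000303). Its interaction of 1.25 ± 0.20 passed (adjusted p = 0.00682). Jak1, the receptor's kinase, was at 369 ± 12.7 CPM in stimulated untreated and at 425 ± 8.32 CPM in stimulated PGE2 cells (0.21 ± 0.06, adjusted p = 0.0415). In all, 4 of the 8 rose and 1 fell with PGE2 in unstimulated cells, against 12.9% of all genes up and 15.5% down. In stimulated cells 3 rose, against 6.04% up and 3.8% down. The blocked fit counted 5 up and 2 down in unstimulated cells, against 23.6% and 24.2% of all genes. In stimulated cells it counted 3 up and 2 down, against 19.1% and 20.7%.

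A list of 18 known targets of IRF1 covered antigen processing, the guanylate-binding proteins and related GTPases, and also Cd274 and Socs1. With PGE2, 8 rose and 1 fell in unstimulated cells, against 12.9% of all genes up and 15.5% down. In stimulated cells 9 rose and none fell, against 6.04% up and 3.8% down. Socs1, which is also in the interferon gamma list, was among those that passed in unstimulated cells. The median of the 18 was 0.39 and 0.36, against -0.0010 and -0.0061 for all genes. Tap1, a subunit of the peptide transporter, rose from 562 ± 29.6 to 707 ± 52.4 CPM in unstimulated (0.35 ± 0.08, adjusted p = 0.00510) and from 433 ± 12.1 to 563 ± 33.6 CPM in stimulated cells (0.39 ± 0.07, adjusted p = 0.00646). Nlrc5, the activator of MHC class I genes, rose in unstimulated cells (0.24 ± 0.08, adjusted p = 0.0303) and had 0.23 ± 0.08 in stimulated cells (adjusted p = 0.0928). Igtp, an immunity-related GTPase, had 0.40 ± 0.21 (adjusted p = 0.190) in the former and rose in the latter (0.44 ± 0.12, adjusted p = 0.0406). In the blocked fit 15 rose and 2 fell in unstimulated cells, against 23.6% of all genes up and 24.2% down. In stimulated cells 13 rose and 1 fell in that fit, against 19.1% up and 20.7% down. Stimulation without PGE2 raised 5 and lowered 8 of the 18, against 31.7% of all genes up and 34.8% down.

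Of 14 genes linked to IRF4 in activated CD8+ T cells, 10 rose and 3 fell with stimulation without PGE2. Of all genes, 31.7% rose and 34.8% fell there. Gzmb, which encodes granzyme B, rose from 752 ± 213 to 5298 ± 203 CPM (2.80 ± 0.17, adjusted p = 3.94e-08), and Aldoa, a glycolytic enzyme, from 1963 ± 97.7 to 2331 ± 116 CPM (0.23 ± 0.08, adjusted p = 0.0161). Tcf7, which encodes TCF1, fell from 1174 ± 238 to 308 ± 16.6 CPM (-1.94 ± 0.12, adjusted p = 5.69e-08). With PGE2, 3 rose and 3 fell in unstimulated cells, against 12.9% of all genes up and 15.5% down, and 2 rose and 3 fell in stimulated cells, against 6.04% up and 3.8% down. The blocked fit counted 6 up and 7 down in unstimulated cells, against 23.6% and 24.2% of all genes. In stimulated cells it counted 3 up and 5 down, against 19.1% and 20.7%. Gzmb fell with PGE2 in unstimulated and stimulated cells, by 0.85 ± 0.25 (adjusted p = 0.0249) and by 0.91 ± 0.07 (adjusted p = 0.000109). Tcf7 rose in stimulated cells (0.41 ± 0.10, adjusted p = 0.0317). Batf, also counted among the DNA-binding partners, was 1 of the 3 that fell with PGE2 in stimulated cells.

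Among 14 sensors and kinases upstream of IRF3 and IRF5, 4 rose and 3 fell with stimulation without PGE2, against 31.7% of all genes up and 34.8% down, with a median of -0.10. In unstimulated cells 1 rose and 4 fell with PGE2, against 28.4% of all genes that changed, and the blocked fit counted 3 up and 5 down. Among the 4 that fell were Irak1 (134 ± 6.35 to 113 ± 5.06 CPM, -0.23 ± 0.05, adjusted p = 0.00753) and Ikbkb (132 ± 9.26 to 112 ± 4.00 CPM, -0.22 ± 0.06, adjusted p = 0.0246), both kinases of Toll-like receptor signalling. In stimulated cells 0 passed with edgeR, against 6.04% of all genes up and 3.8% down. The blocked fit counted 2 up and 2 down there, against 19.1% and 20.7%, and its shares in unstimulated cells were 23.6% and 24.2%. Tmem173, which encodes STING, fell with stimulation (-0.46 ± 0.07, adjusted p = 8.32e-05).

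Of 18 type I interferon-stimulated genes, 16 rose and none fell with stimulation without PGE2, with a median of 1.41. Stimulation with PGE2 raised 13, with a median of 0.96. Of all genes, 31.7% rose and 34.8% fell without PGE2, and 32.5% rose and 31.7% fell with it. Bst2, which encodes tetherin, rose from 68.0 ± 3.75 to 123 ± 11.1 CPM (0.85 ± 0.08, adjusted p = 1.90e-06), and Stat2 from 73.7 ± 3.77 to 90.5 ± 9.81 CPM (0.28 ± 0.08, adjusted p = 0.0104). With PGE2 in unstimulated cells 3 rose, namely Irf7, Irf9 and Stat2, and in stimulated cells 1 fell, Cmpk2. Of all genes, 12.9% rose and 15.5% fell in unstimulated cells, and 6.04% rose and 3.8% fell in stimulated cells. The blocked fit counted 10 up and 2 down in unstimulated cells, where the median was 0.32, against 23.6% and 24.2% of all genes. In stimulated cells, where the median was -0.22, it counted 3 up and 9 down, against 19.1% and 20.7%. The list holds Irf7 and Irf9, described above, and Stat2, which is also counted among the DNA-binding partners.

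**Figure D5:**
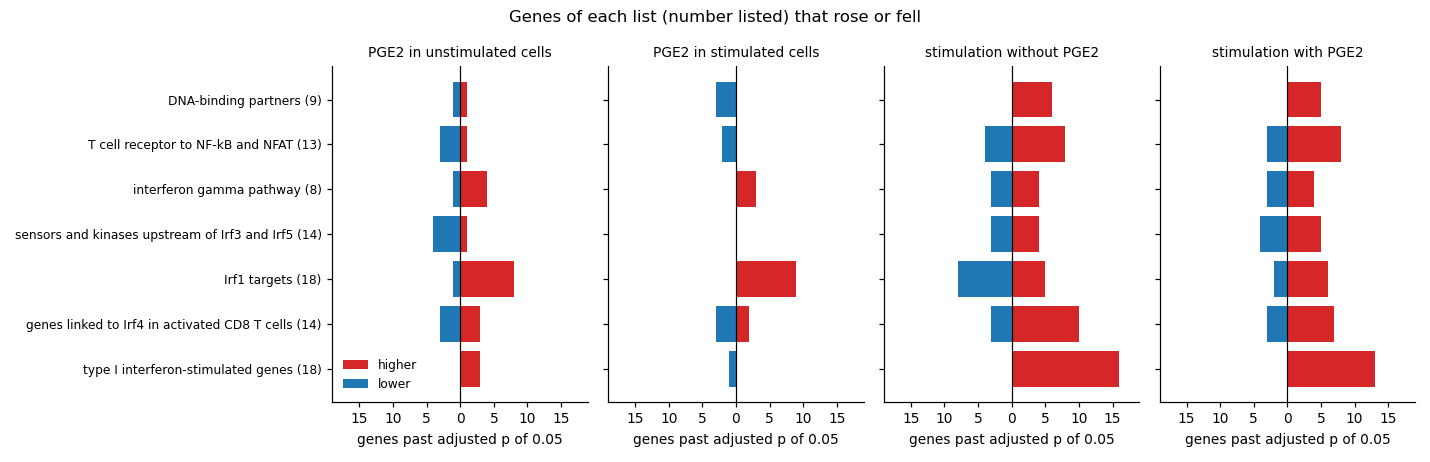
Number of genes of each list (list size in brackets) that rose (right of 0) or fell (left of 0) at an adjusted p below 0.05, without the replicate block, in the 4 comparisons. IRF1 targets have 8 and 9 genes up with PGE2, and type I interferon-stimulated genes 16 and 13 up with stimulation. Of all genes, 12.9% and 6.04% rose with PGE2, and 31.7% and 32.5% with stimulation.

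The genes whose log2 CPM followed each member most closely over the 16 samples were sought among those whose mean was 1 CPM or more. For Irf1 these were Irgm2 (Pearson r = 0.919), Parp9 (0.843) and Tgtp2 (0.835). For Irf4 they were Spire1 (0.997), Lad1 (0.997) and Lif (0.995), and for Irf8 Gadd45b (0.995), Cd83 (0.993) and Gpd2 (0.992). Irf2 was followed by Frat2 (0.980), Chmp1b (0.978) and Il16 (0.977), and Irf3 by Rex1bd (0.950) and Palm3 (0.937). Irf5 was followed by Vav2 (0.983), Cd80 (0.978) and Slc35d3 (0.970), and Irf2bp2 by Agpat5 (0.987), Mif (0.987) and Sytl3 (0.986). Among the members, Irf4 and Irf8 were the most alike (0.985) and Irf2 and Irf8 the most opposed (-0.943). These values describe samples that share 4 groups and their replicate numbers, so a gene that differs between stimulated and unstimulated cells scores high with any other that does.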

How the data were processed

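RNA-seq libraries were made from poly(A)-selected RNA with a NEBNext Ultra kit. Per the submitters' processing notes, the authors used HISAT2 2.0.5, featureCounts 1.5.0-p3 and DESeq2 1.20.0 with build GRCm38. The annotation release and the use of strand are not given in the sources used here. The deposited tables hold read counts per gene, not normalised, and FPKM, which the authors scaled by gene length and library size. The positions of the 7 members and 5 relatives in the deposited tables are the same as in GENCODE M21.

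Counts were filtered with filterByExpr (minimum count 10), scaled with TMM factors and tested with edgeR 4.0.16 (R 4.3.3), two-sided quasi-likelihood test, Benjamini-Hochberg adjustment over all genes tested and a threshold of 0.05, in fits of the 2 groups compared (8 samples). The interaction used all 16 samples. The SE of an edgeR log2 fold change was taken as its absolute value divided by the square root of the F statistic of the test. FPKM values served for levels between genes and, with limma 3.58.1, for an alternative. Other alternatives were DESeq2 1.42.0, other scaling factors and filters, 1 fit of all samples, a fold change of at least 2, leaving out each replicate, and the replicate number as a block. The edgeR fits without a block, DESeq2 and limma on log2(FPKM + 1) were tested on simulated counts with 2-fold changes. Those counts had no shared deviations between replicate numbers, and the blocked fit was not tested in this way.

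Samples of the same number deviated together over 15096 genes, with correlations of 0.137 to 0.444 for PGE2 in unstimulated cells, 0.19 to 0.423 in stimulated cells and 0.112 to 0.359 for stimulation without PGE2. Among stimulated cells, replicate 2 with PGE2 matched untreated replicate 1 best, and had 0.190 with its own number. The correlations between groups were weaker in 1 comparison. For stimulation with PGE2 they were 0.044 to 0.281, so the numbers pair those groups only weakly. There, stimulated replicate 2 matched unstimulated replicate 1 best, and stimulated replicate 4 matched unstimulated replicate 3 best. The blocked fits of stimulation with PGE2 and of the interaction used the replicate number nonetheless. The pairing rests on these data alone.

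Members, lists and the motifs searched were chosen with earlier results of these data known. The text names all 7 members, 5 relatives, of each other list the 3 genes with the highest mean CPM, and for each member the 3 genes most like it. Genes named as 1 of a few that passed were chosen after their values were seen. Values of some genes under this rule are not reported here, and counts over lists include them.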

Additional observations from a re-analysis of the deposited data

Results flagged for a closer look

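In unstimulated cells with PGE2, replicate 4 had 126 CPM of Irf4, far from the other replicates, which had 43.7, 48.4 and 56.2 CPM. Its gap to the nearest of them was large against the range of the group (Dixon's test at the 95% level). Such tests were made for 28 groups, the 7 genes in each of the 4 groups, and chance alone singles out about 1 in 20. Replicate 4 was also the highest of the untreated unstimulated samples, at 179 CPM. Whether the sample differed in its preparation was not tested.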

How the results depend on the processing

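The count of members past the adjusted threshold for PGE2 in unstimulated cells was 1. It was 0 with limma on log2(FPKM + 1) without a filter, 0 in 1 fit of all 16 samples, 0 with a fold change of at least 2, 5 with the replicate block, and 0 to 1 with 1 replicate left out. In stimulated cells it was 1, against 2 with DESeq2, 2 with upper-quartile factors, 2 in 1 fit of all samples (Irf1 in addition to Irf2 in each), 0 with limma without a filter, 0 with the fold rule, 4 with the replicate block, and 0 to 2 with 1 replicate left out. The block without 1 replicate number of both groups, added after seeing the data, gave 3 to 5 members in either. For stimulation without PGE2 the count was 6, 3 with the fold rule, 5 without a filter and 5 to 6 with 1 replicate left out. With upper-quartile factors it was 6 with other members, as Irf3 was lost (adjusted p = 0.175) and Irf1 fell (-0.23, adjusted p = 0.0190). With PGE2 it was 6, and 4 to 6 under the alternatives. Under the replicate block, no member's call for stimulation or the interaction changed. Irf1 with PGE2 in unstimulated cells was past the threshold in 2 of 8 fits with a replicate left out and Irf2 in stimulated cells in 7 of 8.

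Small differences that passed no test changed sign when 1 replicate was left out. For PGE2 in unstimulated cells, Irf2 ranged from -0.12 to 0.0058 (the latter without untreated replicate 1) and Irf8 from -0.32 (without PGE2 replicate 4) to 0.41, with -0.07 without untreated replicate 1 and -0.062 under the block without replicate 4. Irf4 with PGE2 in stimulated cells ranged from -0.042 (without PGE2 replicate 1) to 0.19 and was -0.0095 under the block without replicate 1. For stimulation with PGE2, Irf1 ranged from -0.15 to 0.054 (without unstimulated replicate 4) and was 0.045 without stimulated replicate 4. For the interaction, Irf1 ranged from -0.014 (without unstimulated PGE2 replicate 1) to 0.14, and Irf2bp2 from -0.063 (without stimulated untreated replicate 4) to 0.11, with -0.0036 without unstimulated and -0.012 without stimulated PGE2 replicate 1. The cause was not tested. Depth limited no member, as the lowest count was 253. The spread of Irf4 and Irf8 between unstimulated replicates, with standard errors of 0.36 and 0.39 for PGE2, limits what the fits without a block can show.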
